A study of Mus musculus with 23 samples.

Results

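Edited-allele-responsive genes of CD8 T cells are 8 genes, Cd163l1, Drc1, Dlg5, Osbpl3, Pdlim4, Il18r1, Tmem163 and Ppm1j, of the 32285 genes counted. They were chosen by symbol for how their unique molecular identifiers (UMIs, the counted RNA molecules) moved with the number of Y665F alleles in lymph node (LN) CD8 T cells, in LN cells with a UMI of Trdc, the constant segment of the T-cell receptor delta chain, and in spleen. Those genotype differences are therefore descriptions of the choice, and the fold changes and counts of calls given for them support nothing. Adjusted p-values are given for these genes in cells or tissues the choice did not use. P-values are also given for a split, by Ccl5, of CD8 T cells the choice did use, and those are descriptions only.

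STAT5B is a transcription factor that receptors for interleukin-2, interleukin-7, interleukin-15 and growth hormone activate by phosphorylation, after which it pairs through its SH2 domain and binds DNA. In CD8 T cells it serves the survival of naive cells and the upkeep of memory cells, which respond quickly and partly without a new antigen signal. The 8 genes are no textbook STAT5 pathway: a scavenger receptor, a cytokine receptor subunit, a zinc transporter, a lipid transfer protein, scaffold and cytoskeleton proteins and a phosphatase.

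The study edited a tyrosine of the mouse STAT5B SH2 domain in C57BL/6N animals, to phenylalanine (Y665F) by CRISPR/Cas9 with an oligonucleotide donor and to histidine (Y665H) by base editing, in every cell of the body. LN came from wild-type (WT, n = 2 libraries), heterozygous (het, n = 3) and homozygous (homo, n = 2) Y665F mice, each with a matched library of T-cell receptors (TCR). Spleen gave 1 library of CD45+ cells per genotype (WT, Y665H, Y665F), each combined from several mice, and bone marrow (BM) gave 2 per genotype, with zygosity in neither tissue given by the labels. Nothing in the labels says that LN or BM replicates were separate animals, so p-values measure the spread between libraries, which may be technical, and the edits cannot be checked in counts per gene. Mice were 2 months old at collection.

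CD8 T cells were barcodes with a Cd8b1 UMI and no Cd4 UMI. The gate held 1057 to 2317 cells per LN library and 573281 to 8075139 UMIs, and every marker of the CD8 list was found in it. Het replicate 3 and homo replicate 1 were shallow, with medians of 499 and 516 UMIs per CD8 T cell against 1226 to 3943 in the other LN libraries, and the results that rest on them most are also given without them. Summed B-cell markers stood at 321 to 406 CPM (counts per 1e+06 UMIs of the gate) in LN CD8 T cells and 8685 to 11329 CPM in B cells. Libraries shared at most 2.89% of their barcodes over 120 pairs. In a sum over cells, fewer cells that use a gene and less RNA per cell cannot be told apart, and counting intervals cover counting error only.

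On the mouse GRCm38 build, Cd163l1 lies at chromosome 7, 140218267-140231145 (+ strand), Drc1 at chromosome 5, 30281388-30366695 (+), Dlg5 at chromosome 14, 24133953-24245920 (-), Osbpl3 at chromosome 6, 50293330-50456201 (-), and Pdlim4 at chromosome 11, 54054928-54069014 (-). Il18r1 lies at chromosome 1, 40465552-40500854 (+), Tmem163 at chromosome 1, 127486546-127679548 (-), and Ppm1j at chromosome 3, 104781056-104786018 (+). All are protein-coding. Tmem163 shares 152 exonic bases with Mgat5 on the opposite strand, and the strand setting of the counting was not given in the sources used here, so its counts are uncertain there.

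The sequences shown next are those that bear on whether the members carry the palindrome TTCNNNGAA, the letters that dimers of STAT5 and other STAT proteins favour, close to their starts. The 250 bases before each start site in RefSeq (GRCm38.p6) were searched. The palindrome reads the same on both strands, and it stood in 2306 of 32851 RefSeq promoters (7.02%). All 8 members matched, with 10 start sites, of which 2 held it, in Dlg5 and Il18r1. Cd163l1 is shown because it is the member described first below, and it has no match in the window. Capitals mark the palindrome. The Cd163l1 window is chr7:140218017-140218266 (+) and the Dlg5 window chr14:24245921-24246170 (-), both outside annotated exons. The Il18r1 sites, chr1:40465777-40465805 and chr1:40465844-40465872 (+), precede the most downstream of its start sites and lie downstream of its others, so within the gene.
Cd163l1: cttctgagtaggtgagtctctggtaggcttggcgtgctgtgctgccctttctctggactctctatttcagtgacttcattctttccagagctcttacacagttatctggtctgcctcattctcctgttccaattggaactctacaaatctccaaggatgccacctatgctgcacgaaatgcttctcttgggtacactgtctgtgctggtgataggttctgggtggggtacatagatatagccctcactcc
Dlg5: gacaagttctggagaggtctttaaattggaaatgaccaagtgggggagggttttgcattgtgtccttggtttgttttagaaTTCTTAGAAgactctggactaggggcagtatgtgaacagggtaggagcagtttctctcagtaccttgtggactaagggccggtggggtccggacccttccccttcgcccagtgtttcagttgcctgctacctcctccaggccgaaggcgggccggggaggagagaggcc
Il18r1, upstream site: tcggggttagTTCTGGGAActgtggagct
Il18r1, downstream site: agtacaggtcTTCCCAGAActgaaagctt
The Dlg5 match begins 169 bases before the start, at -169, and those of Il18r1 at -219 and -152. A match is a run of letters and not a measured binding site, and no match says only that these letters are not in the window. The paper measured STAT5B binding by chromatin immunoprecipitation sequencing in stimulated spleen T cells. It shows Il18r1 as an example of a candidate enhancer at promoter sequences. Whether that binding covers the letters shown here was not tested.

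Cd163l1 encodes a scavenger receptor of the cysteine-rich family, also called SCART1, known from gamma-delta T cells. In LN CD8 T cells it stood at 7.11 and 5.71 CPM in the WT libraries, 30.2, 25.7 and 41.9 in the het libraries and 80.7 and 61.5 in those of homo, from 10, 21, 244, 87, 24, 59 and 143 UMIs. Neither neighbouring pair of groups overlapped, and the mean went from 6.41 ± 0.992 CPM (SD, n = 2) in WT to 32.6 ± 8.35 (n = 3) in het and 71.1 ± 13.6 (n = 2) in homo, or 27.9 ± 3.22 (n = 2) and 61.5 CPM (n = 1) without the shallow libraries. Il18r1, the ligand-binding subunit of the interleukin-18 receptor, through which memory CD8 T cells can be driven to make interferon-gamma, read 32.0 and 25.8 CPM in WT, 56.6, 50.7 and 40.1 in the het libraries and 95.8 and 70.1 in those of homo. Its groups did not overlap either, with a homo mean 2.87-fold the WT mean (2.43-fold without the shallow library).

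Tmem163 encodes a zinc transporter of vesicle and plasma membranes. It read 11.4 and 3.26 CPM in WT, 8.92, 9.44 and 19.2 in the het libraries and 19.2 and 12.9 in those of homo. WT replicate 1 lay above 2 of the 3 het libraries, WT overlapped het, and het overlapped homo. Osbpl3, an oxysterol-binding-protein relative that moves lipids at membrane contact sites, read 1.42 and 1.09 CPM in WT, 10.8, 7.38 and 22.7 in the het libraries and 32.8 and 16.3 in those of homo. WT lay below every Y665F library, and the highest het and homo libraries were the shallow ones. Its homo mean was 19.6-fold the WT mean, which came from 2 and 4 UMIs, and 13.0-fold without the shallow library.

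Dlg5, a scaffold of the membrane-associated guanylate kinase family that works in cell polarity, read 2.84 and 1.09 CPM in WT, 4.71, 9.44 and 6.98 in the het libraries and 10.9 and 12 in those of homo. Pdlim4, a PDZ and LIM domain adaptor that binds actin-associated proteins, read 2.13 and 4.89 CPM in WT, 5.82, 8.26 and 6.98 in the het libraries and 20.5 and 18.5 in those of homo. Drc1, a subunit of the nexin-dynein regulatory complex of motile cilia, which lymphocytes do not have, read 4.27 and 2.72 CPM in WT, 17.2, 20.9 and 17.4 in the het libraries and 32.8 and 20.7 in those of homo. Dlg5 and Pdlim4 stood in steps with no overlap, while a het library of Drc1 reached its lower homo library. Ppm1j, a metal-dependent serine/threonine phosphatase, read 9.24 and 7.88 CPM in WT, 18.6, 13.6 and 17.4 in the het libraries and 34.2 and 27.1 in those of homo, again in steps with no overlap.

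**Figure D1:**
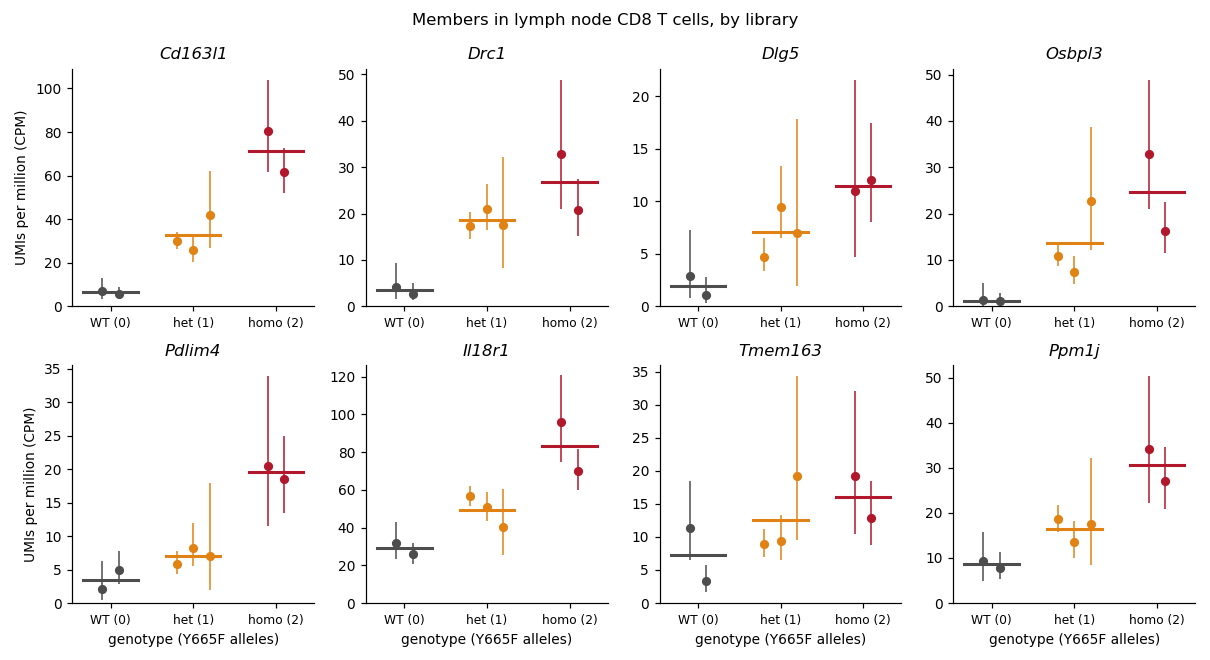
CPM (linear axes from 0) of each of the 8 genes in LN CD8 T cells, by genotype with the number of Y665F alleles in parentheses; points are libraries with exact 95% Poisson intervals (counting error), and bars are group means. Every het library lies above both WT libraries in 7 of the genes, Tmem163 being the exception, as for 8.85% of all genes tested, and the genes were chosen on this contrast.

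The place of het between WT and homo depended on single libraries for some members. The het mean covered 21.9% of the distance from WT to homo for Pdlim4, 36.1% for Ppm1j, 37.5% for Il18r1 and 40.5% for Cd163l1, but 52.9% for Osbpl3, 53.3% for Dlg5, 59.7% for Tmem163 and 64.7% for Drc1. Leaving out 1 library at a time kept Pdlim4 between 14.6% (without WT replicate 1) and 28.1%, and Ppm1j, Il18r1 and Cd163l1 between 30.3% and 49.1%. Osbpl3 went from 33.5% (without het replicate 3) to 81.8% (without homo replicate 1), Tmem163 from 21.4% to 93.0% without the same libraries, Drc1 from 51.3% to 87.7%, and Dlg5 from 40.7% to 65.5%. Without both shallow libraries Pdlim4 stood at 23.5%, Ppm1j at 40.5%, Il18r1 at 60.1%, Cd163l1 at 39.1%, Osbpl3 at 51.8%, Dlg5 at 50.7%, Tmem163 at 33.3% and Drc1 at 90.8%. These positions were not tested. The fitted log2 fold change (SE) of homo over WT was 3.53 (0.25) for Cd163l1, 2.98 (0.35) for Drc1, 2.93 (0.57) for Dlg5, 4.17 (0.55) for Osbpl3, 2.29 (0.37) for Pdlim4, 1.56 (0.19) for Il18r1, 1.44 (0.45) for Tmem163 and 1.88 (0.27) for Ppm1j. The values of het over WT were 2.35 (0.25), 2.61 (0.31), 2.06 (0.53), 3.18 (0.53), 0.78 (0.36), 1.0 (0.17), 0.86 (0.39) and 1.10 (0.24) in the same order. Without WT replicate 2, which held most UMIs of the WT gate, Dlg5 was 2.06 in homo and 1.18 in het, Pdlim4 3.16 and 1.66, and Tmem163 0.38 and -0.19. Without WT replicate 1, Tmem163 was 2.24 and 1.66, and without homo replicate 2 Osbpl3 was 4.77 in homo.

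In this fit across 9561 genes (edgeR quasi-likelihood test, a call needing an adjusted p, by Benjamini-Hochberg, under 0.05 and a log2 fold change over 1 in size), 7 of the 8 were called higher in homo than WT, where 0.962% of genes were, and 5 in het, where 0.356% were. Between homo and het, 1 of the 8 was called, Cd163l1 (1.18, SE 0.17), where 0.0209% of genes were called higher. The members' median log2 fold change was 2.61 in homo and 1.58 in het, while the median of all genes was 0.00 in both. Every het library lay above every WT library for 8.85% of genes, and every homo library above every het library for 10.6%. Since the genes were chosen on these contrasts, the counts describe the choice. Leaving out 1 library at a time gave 5 to 8 members in homo, 1 to 6 in het and 0 to 2 between homo and het. The 1 in het was Cd163l1, without WT replicate 2, and its call between homo and het was lost without het replicate 2 or homo replicate 2, with DESeq2 and with Cd8a and Cd8b1 both required. DESeq2 called 7 in homo and 3 in het, and requiring Cd8a and Cd8b1 left 6 and 4. Without het replicate 3 and homo replicate 1, the medians were 2.53 and 1.58 and no member's call changed.

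The share of CD8 T cells with a Cd163l1 UMI stood in steps once depth was made equal. Before thinning it was 0.656% and 0.432% in WT, 4.78%, 2.95% and 1.89% in the het libraries and 3.18% and 5.50% in those of homo. With each cell thinned to 400 UMIs, where 242 and 244 shallower cells of het replicate 3 and homo replicate 1 and 12 of homo replicate 2 dropped out, it was 0.375% and 0.129%, then 0.967%, 0.769% and 0.859%, then 2.51% and 2.04%. Dlg5, Pdlim4, Il18r1 and Ppm1j did not keep their steps at this depth. Dlg5 was found in 0.187% and 0% of cells in WT, 0.204%, 0.384% and 0.245% in the het libraries and 0.0929% and 0.446% in those of homo, from 0 to 7 cells, so that homo overlapped both WT and het. Il18r1 and Ppm1j overlapped between het and homo as well, at 1.60% to 1.98% against 3.71% and 1.85%, and at 0.560% to 0.859% against 0.836% and 0.765%. No LN B cell held a Cd163l1 UMI in any library, at medians of 297 to 1941 UMIs per B cell against 499 to 3943 per CD8 T cell. At 400 UMIs, 0 of 2933 B cells in WT replicate 1 allows a share of cells with a UMI of up to 0.102% (the floor of 3 counts). The other members were also low in LN B cells (0.00 to 7.42 CPM), except Tmem163 at 78.9 to 122 CPM, which is above its level in every CD8 T cell sum. Osbpl3 in WT also read higher in B cells, at 5.29 and 7.42 CPM from 13 and 20 UMIs, than in CD8 T cells, and it had 0 UMIs in the B cells of 4 of the 5 Y665F libraries. The part of B-cell RNA in the counts of either gene in the CD8 T cells was not tested.

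Ccl5, a chemokine that memory and effector CD8 T cells store as RNA, was used to split the CD8 T cells. The choice of genes had used these same cells. The share of Ccl5-positive cells rose with allele number, so choosing genes that rise can favour genes high in those cells. The p-values of the split are therefore descriptions and support nothing about the members. Cells with a Ccl5 UMI made up 7.87% and 6.91% of CD8 T cells in WT, 36.1%, 26.5% and 28.9% in the het libraries and 39.6% and 47.9% in those of homo. At 400 UMIs per cell the shares were 3.75% and 3.41%, then 19.8%, 15% and 28.6%, then 38.4% and 35.4%, and 0% to 6.73% in B cells, the highest being 7 of the 104 B cells of homo replicate 1 that reached 400 UMIs. The Ccl5-positive cells were deeper in every LN library (medians of 567 to 4494 UMIs against 468 to 3667), and CPM rather than shares of cells are compared between the subsets below. CPM do not remove the limit of depth, since a cell counts as Ccl5-positive only if a Ccl5 UMI was found. Ccl5-negative cells can therefore include cells whose Ccl5 was missed, to a degree that depends on the library's depth. The part of this in the levels and mixes below was not tested.

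Within the same libraries, Cd163l1 read 61.3 and 63.1 CPM in Ccl5-positive cells of WT, 70.0, 71.6 and 98.8 in the het libraries and 138 and 109 in those of homo. In Ccl5-negative cells it read 0.794 and 0.297 CPM in WT from 1 UMI each, 2.11, 4.72 and 13.1 in the het libraries and 36.4 and 5.63 in those of homo, where the 36.4 came from the shallow homo replicate 1. Cd163l1 was thus already a gene of Ccl5-positive cells in WT, and 74.6% to 95.9% of its CD8 UMIs in each library came from them. In a fit with the library as a block over 7802 genes, Ccl5-positive cells exceeded Ccl5-negative cells by 4.29 ± 0.18 on the log2 scale (SE, adjusted p = 5.96e-50, edgeR quasi-likelihood test), higher in 7 of 7 libraries.

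Higher calls made up 1.19% and all calls 1.9% of genes in that fit. Of the 8 genes, 6 passed its filter on low counts, and each was called higher in Ccl5-positive cells. Osbpl3 differed by 2.99 ± 0.26 (SE), Tmem163 by 2.94 ± 0.26, Ppm1j by 2.20 ± 0.20, Drc1 by 1.66 ± 0.19 and Il18r1 by 1.49 ± 0.10 on the log2 scale (adjusted p between 7.13e-30 and 2.07e-13, edgeR). Passing the filter can itself favour a gene that is high in 1 subset, so the count is not a result about the set. All 6 stayed called under 15 alternatives each. Like the p-values, this belongs to genes that the choice and the filter can favour, and it is a description.

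Dlg5 and Pdlim4 did not pass that filter, and they went opposite ways. Dlg5 read 6.31 to 26.4 CPM in Ccl5-positive and 0.595 to 2.63 CPM in Ccl5-negative cells and was higher in the positive cells in 7 of 7 libraries, by 14.8 CPM on average (exact paired permutation test, two-sided, p = 0.0156, the smallest that 7 libraries allow). The test was added after the values of both genes were seen. With 7 of 7 libraries on the same side its p for Dlg5 could take no other value, so it restates them. Pdlim4 read 2.38 and 4.76 CPM in Ccl5-negative cells of WT, 9.73, 10.3 and 10.5 in the het libraries and 34.0 and 36.6 in those of homo. In Ccl5-positive cells it read 0 and 6.31 CPM in WT, 0.299, 3.77 and 0 in the het libraries and 3.13 and 3.18 in those of homo. It was lower in Ccl5-positive cells in 6 of 7 libraries, WT replicate 2 being the exception. Its mean over all 7 libraries stood at 2.38 against 15.5 CPM (the same exact permutation test, p = 0.0312). That p is a description too, and it pools the genotypes. WT averaged 3.16 CPM with a Ccl5 UMI and 3.57 CPM without one, its 2 libraries differing in direction. Het and homo cells lacking that UMI averaged 10.2 and 35.3 CPM. The test therefore does not say that Pdlim4 differs between the subsets of WT. Pdlim4 UMIs of the CD8 gate came mostly from Ccl5-negative cells, with 0% to 14.3% from positive ones. Pdlim4 also read more in CD4 T cells than in the CD8 T cells of each library, as given below. Summed CD4 T-cell markers stood at 65.4 to 78.0 CPM in the LN CD8 gate of WT, 37.8 to 50.6 in het and 34.4 to 38.3 in homo. The part of CD4 T-cell RNA in these Pdlim4 counts was not tested.

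**Figure D2:**
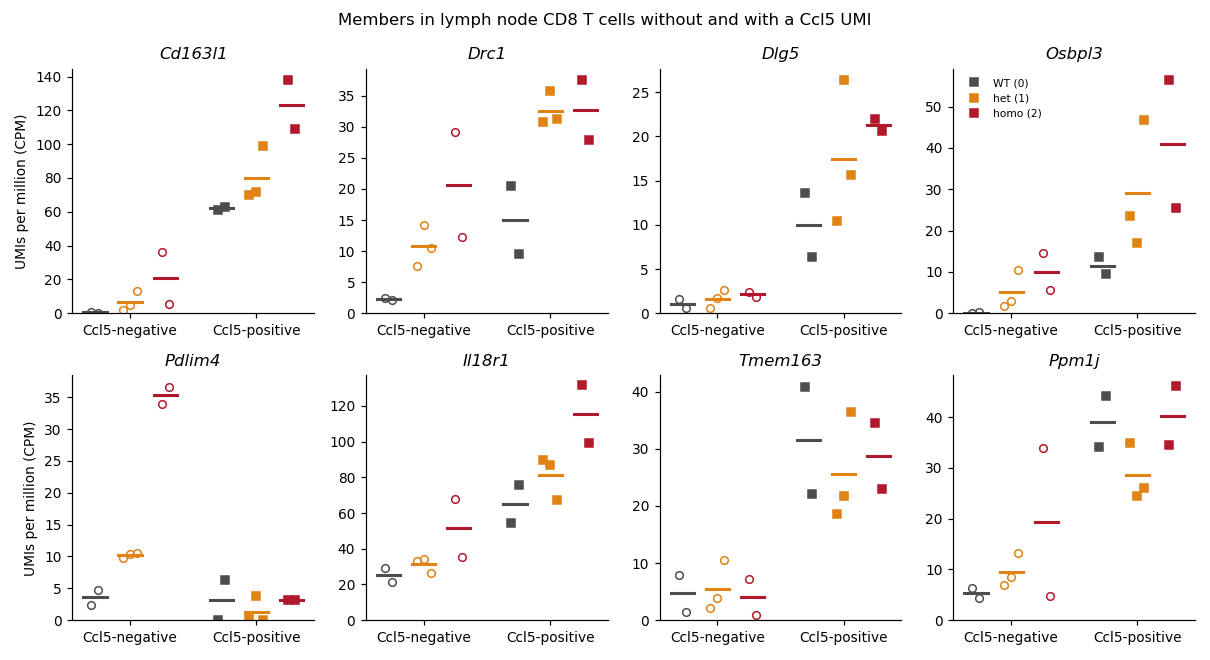
CPM (linear axes from 0) of each gene in LN CD8 T cells without (open circles) and with (filled squares) a Ccl5 UMI, by library, coloured by genotype, with bars for group means. Pdlim4 climbs with allele number in the Ccl5-negative cells and stays between 0 and 6.31 CPM in the Ccl5-positive cells, while the other genes are higher in the Ccl5-positive cells of each genotype mean.

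Every Y665F library was given the WT levels of both subsets, mixed in its own UMI shares. The distance of this mix from the WT mean was set against the measured rise. The WT levels were pooled over UMIs and the WT mean was taken over libraries. Each percentage therefore carries an offset that does not come from the Ccl5 shares. The mix of the WT libraries themselves was 4.13 and 4.13 CPM for Pdlim4 (mean 3.51 measured) and 5.83 and 5.38 for Tmem163 (mean 7.32 measured). Ppm1j reached 115% of the measured het rise and 63.4% of the homo rise in this way (94.9% to 127% and 47.3% to 85.7% with 1 library left out at a time), and Cd163l1 61.2% and 37.7% (51.8% to 77.1% and 28.5% to 50.1%). Il18r1 reached 52.5% and 31%, the latter being 18.9% without WT replicate 2 and 46.5% without homo replicate 1. Drc1 reached 16.5% and 16.9% (31.6% and 30.9% without WT replicate 2, and 26.2% of the homo rise without homo replicate 1). Osbpl3 reached 21.9% and 17.7%, with 35.9% without het replicate 3, and 31% and 11.3% without homo replicate 1 and 2. Pdlim4 reached 19.1% and 4.36%, mostly through the offset, with a mix of 4.18 CPM in het and 4.21 CPM in homo. Without WT replicate 2 its mix fell below WT (-12.2% and -5.27%). Dlg5 reached 32.5% and 28.3%, but 71.6% and 53.5% without WT replicate 2. Tmem163 gave no usable figure, since its share of the homo rise ran from 57.1% (without homo replicate 2) to 272% (without WT replicate 2). Without both shallow libraries the shares of the het and homo rise were 127% and 85.7% for Ppm1j, 77.1% and 50.1% for Cd163l1, 44.6% and 46.5% for Il18r1, 16.6% and 26.2% for Drc1, 35.9% and 31% for Osbpl3, 33.7% and 30.8% for Dlg5 and 19.0% and 4.72% for Pdlim4. WT subset levels of Osbpl3 and Dlg5 rest on 0 to 3 UMIs a library, and no share was tested.

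Levels within the subsets were read for Drc1, Il18r1 and Ppm1j, and the cause of any difference was not tested. Drc1 in the Ccl5-negative cells read 2.38 and 2.08 CPM in WT, 7.61, 14.2 and 10.5 in the het libraries and 29.1 and 12.2 in those of homo, with no overlap of WT with either. In Ccl5-positive cells it read 20.4 and 9.47 CPM in WT from 3 UMIs each, and 27.8 to 37.6 in the Y665F libraries. Il18r1 read 29.4 and 21.1 CPM in Ccl5-negative WT cells, 33, 34.4 and 26.3 in the het libraries and 68.0 and 35.6 in those of homo, so het overlapped WT there. Ppm1j in Ccl5-positive cells read 34.0 and 44.2 CPM in WT, 35.0, 24.5 and 26 in the het libraries and 34.5 and 46.1 in those of homo, with overlap throughout.

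**Figure D3:**
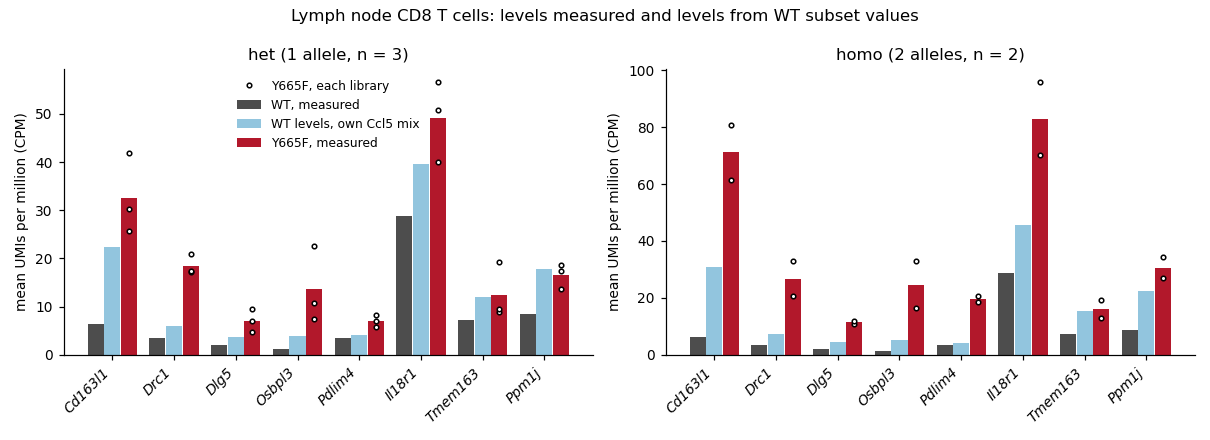
Mean CPM in LN CD8 T cells of het (left) and homo (right) libraries: WT as measured (grey), WT subset levels mixed in each Y665F library's own Ccl5 shares (blue), and Y665F as measured (red, with open points for single libraries). The homo libraries of Tmem163 lie on both sides of the blue bar (19.2 and 12.9 CPM measured), and the blue bar of Pdlim4 stays near the grey (4.36% of the homo rise).

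Ccl5-positive CD8 T cells with a Cd163l1 UMI were compared with those without one in the 4 libraries that held most of them (43 to 202 cells), and 6 of the 7 other members read higher in each. The exception was Pdlim4 in het replicates 1 and 2 and spleen Y665F, and Drc1 in homo replicate 2 (26.6 against 28.0 CPM). In het replicate 1, 89 cells with a Cd163l1 UMI read 31.9 CPM of Dlg5, 38.3 of Osbpl3 and 115 of Il18r1, and 620 cells without one read 6.96, 21.2 and 85.9. In homo replicate 2, 82 cells with one read 26.6, 73.3 and 140 CPM of the same genes, and 676 without one 19.9, 19.0 and 93.9. In spleen Y665F, 202 cells with one read 25.4, 57.9 and 212 CPM, and 1340 without one 3.86, 37.5 and 131. In the other libraries, with 6 to 31 such cells, 1 to 4 of the 7 read higher. The share of all genes that read higher was not counted, so none of these counts is a result about the set. The cells with a UMI were deeper (medians of 5127 against 4419 UMIs in het replicate 1, 1779 against 1598 in homo replicate 2, and 10247 against 8911 in spleen Y665F), and cells of 1 library are not replicates, so no test was made.

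TCR libraries showed which receptor the Cd163l1 cells carried. Of Ccl5-positive CD8 T cells with a Cd163l1 UMI, 66.7% to 93.5% held a paired alpha and beta chain (6 of 9 cells, exact 95% binomial interval 29.9% to 92.5%, in WT replicate 2, and 29 of 31 cells, 78.6% to 99.2%, in homo replicate 1). Without a Cd163l1 UMI the shares were 80.8% to 87.6%. The Trdc-positive cells without Cd8b1 or Cd4, 12 to 48 a library, held such a pair in 9.68% to 33.3%, and no Cd163l1-positive cell among them did.

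Cd163l1 is best known from gamma-delta T cells, and Trdc-positive cells carried it in WT already. In all LN Trdc-positive cells, summed natural killer cell markers stood at 358 to 617 CPM in WT, 61.8 to 297 in het and 0 to 29.3 in homo. Gamma-delta markers stood at 1153 to 1301, 701 to 1688 and 1349 to 2087 CPM, and the part of either in the values was not tested. Trdc-positive cells without Cd8b1 or Cd4 held 2 and 51 Cd163l1 UMIs in WT, 14, 0 and 1 in the het libraries and 0 and 12 in those of homo, in 2, 6, 4, 0, 1, 0 and 3 cells. Single LN cells of this gate held up to 17 UMIs, against up to 11 in an LN Ccl5-positive CD8 T cell. No order by genotype showed in these few cells, and a library at 0 of 13 cells says little. Relative to CD8 T cells of the same libraries the level was higher by 2.99 ± 0.30 on the log2 scale (SE), and by 1.80 without WT replicate 2, which held 51 of the 80 UMIs, a contrast in which 0.659% of 4553 genes were called higher and which the choice of genes had touched. Il18r1 differed by 0.49 ± 0.38, and the other 6 genes were too low to be fitted.

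CD4 T cells (a Cd4 UMI, no Cd8a or Cd8b1 UMI) were not used in choosing the genes. Pdlim4 read more there than in the CD8 T cells of each library, at 71.5 and 64.0 CPM in WT, 105, 106 and 170 in the het libraries and 171 and 185 in those of homo. The groups stood in the order of allele number without overlap, with means of 67.8 ± 5.28 (SD, n = 2), 127 ± 37.5 (n = 3) and 178 ± 9.90 (n = 2). The highest het and lowest homo library, at 170 and 171 CPM, were the shallow ones. Every het library lay above every WT library for 6.90% of genes, and every homo library above every het library for 11.6%. Without Foxp3-positive regulatory cells het and homo overlapped (136 ± 35.3 and 182 ± 10.2 CPM). Homo exceeded WT by 1.52 ± 0.22 on the log2 scale (SE, adjusted p = 3.33e-04, edgeR over 7149 genes), where 0.168% of genes were called higher and 0.28% in all. Het exceeded WT by 0.78 ± 0.17 (adjusted p = 0.0236), short of the fold limit, where 0.0839% of genes were called higher and 0.294% in all. Without the shallow libraries the means were 106 ± 0.573 CPM (n = 2) in het and 185 CPM (n = 1) in homo, and the differences 0.75 ± 0.16 (adjusted p = 0.0371) and 1.57 ± 0.21 (adjusted p = 7.42e-04, edgeR).

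The Pdlim4 result in homo CD4 T cells held in 16 of 18 alternatives. It missed the threshold with DESeq2 (1.46, adjusted p = 0.0944) and without homo replicate 2 (1.30, adjusted p = 0.763), which leaves homo replicate 1 with 176 CD4 T cells and 82085 UMIs. Without Foxp3-positive regulatory cells it was 1.44 (adjusted p = 3.23e-04). In het, DESeq2 gave an adjusted p of 1.0 at 0.83.

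Il18r1 and Ppm1j were the other members high enough to test in CD4 T cells. Il18r1 read 16.5 and 21.6 CPM in WT, 22.0, 20.8 and 11.4 in the het libraries and 12.2 and 26.1 in those of homo, a log2 difference of 0.33 ± 0.47 between homo and WT (adjusted p = 0.911). Ppm1j read 9.17 and 10.1 CPM in WT, 23.0, 27.3 and 34.1 in the het libraries and 0 and 20.1 in those of homo, with 1.39 ± 0.38 for het (adjusted p = 0.141) and 0.85 ± 0.62 for homo (adjusted p = 0.760, edgeR). Neither passed the test, and Ppm1j in het lay above WT in every library, as 6.90% of genes did. The other 5 genes stayed below the filter, with Cd163l1 at 0 UMIs in both WT, where 3 counts would be 5.50 and 2.02 CPM, and 12.2 CPM at most elsewhere, from the shallow homo replicate 1. Tmem163 stood the other way, at 12.8 and 8.09 CPM in the WT libraries from 7 and 12 UMIs, 3.33 and 2.19 in het replicates 1 and 2 and 2.01 in homo replicate 2, from 10, 2 and 1 UMIs. The shallow libraries held none, where 3 counts would be 34.1 and 36.5 CPM, and no test was made.

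In spleen, with 1 library per genotype, there was no test, and ratios carry exact 95% Poisson intervals for counting error only. Spleen values were part of the choice. In CD8 T cells (1920 WT, 1570 Y665H and 2014 Y665F cells), Drc1 stood at 1.96, 1.51 and 45.9 CPM in WT, Y665H and Y665F, from 27, 18 and 807 UMIs. Cd163l1 stood at 3.55, 2.43 and 31.9 CPM from 49, 29 and 560 UMIs. The Y665F ratio over WT was thus 23.5 (16 to 35.8) for Drc1 and 8.98 (6.70 to 12.3) for Cd163l1. For Dlg5 it was 4.12 (2.54 to 7.03), for Osbpl3 4.11 (3.34 to 5.08), for Il18r1 1.80 (1.67 to 1.94), for Pdlim4 1.64 (1.23 to 2.20), for Tmem163 1.62 (1.22 to 2.17) and for Ppm1j 1.58 (1.27 to 1.98). Leaving out the barcodes of most UMIs, a setting added after the values were seen, gave 34.5 for Drc1, 13.3 for Cd163l1 and 6.59 for Dlg5. Pdlim4 was 2.42 (1.69 to 3.55) with Cd8a and Cd8b1 both required, and 1.34 (0.982 to 1.86) without cells that held B-cell UMIs, the latter also an added setting.

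The Y665H ratios over WT ran from 0.684 (0.417 to 1.11) for Cd163l1 to 1.33 (0.698 to 2.55) for Dlg5, and every interval held 1. Under other cell settings some intervals lay below 1. Without the barcodes of most UMIs, Cd163l1 was 0.480 (0.216 to 0.995), Osbpl3 0.626 (0.423 to 0.915), Pdlim4 0.657 (0.426 to 0.9996) and Tmem163 0.579 (0.352 to 0.931), while Dlg5 was 1.56 (0.656 to 3.79). Without B-cell UMIs, Cd163l1 was 0.444 (0.211 to 0.870) and Osbpl3 0.619 (0.421 to 0.897). Osbpl3 was 0.673 (0.474 to 0.947) with Cd8a and Cd8b1 required, and Tmem163 0.657 (0.439 to 0.972) without Trdc-positive cells. No Y665H interval lay above 1 under the 6 settings tried. The share of all genes with an interval below 1 was not counted under any setting, so these intervals are not a result about the set. Of 11803 genes with at least 40 UMIs over the 3 libraries, 5.49% stood above 1.5-fold in Y665F and 6.34% in Y665H, beside 8 and 0 of these genes. In Y665F 6 stayed above 1.5-fold without B-cell UMIs, Pdlim4 and Ppm1j (1.41, 1.10 to 1.83) not doing so, and in Y665H 1 stood above it, Dlg5, without the barcodes of most UMIs. Summed neutrophil markers in the spleen CD8 gate stood at 269.9 CPM in WT, 5514 in Y665H and 5574 in Y665F, and red cell markers at 11.7, 1409 and 2.22 CPM. In the LN CD8 gate they stood at 0 to 0.272 CPM and 0 CPM. Their part in the spleen ratios was not tested.

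Cells with a Ccl5 UMI made up 36.0%, 32.6% and 76.6% of spleen CD8 T cells in WT, Y665H and Y665F, and 13.8%, 12% and 49.1% at 400 UMIs per cell. In spleen B cells the shares at 400 UMIs were 3.50%, 2.50% and 2.09%, at medians of 3921, 3939 and 3844 UMIs against 6792, 7036 and 8715 in CD8 T cells. The subsets below were formed at full depth. These B-cell shares therefore do not give the Ccl5 background in them, and its part was not tested. Within Ccl5-positive cells Ppm1j and Tmem163 had ratios of 0.984 (0.775 to 1.26) and 1.15 (0.832 to 1.62), with both intervals holding 1. Cd163l1 had 4.55 (3.38 to 6.24) there, Drc1 13.0 (8.35 to 21.4), Osbpl3 2.23 (1.80 to 2.78) and Dlg5 2.08 (1.27 to 3.6). Il18r1 had 1.31 (1.20 to 1.44) and Pdlim4 4.41 (1.92 to 12.5), the latter from 6 WT UMIs. Membership in the Ccl5-positive subset depended on depth, and the subset need not hold the same kinds of cells in each genotype. The part of this in the ratios was not tested.

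Drc1 in spleen was not bound to the Ccl5-positive cells or to CD8 T cells. In Ccl5-negative CD8 T cells it went from 7 UMIs in WT (0.847 CPM) to 149 in Y665F (42.0 CPM), a ratio of 49.6 (23.5 to 126). In CD4 T cells it went from 18 UMIs (1.94 CPM) to 174 (27.6 CPM), a ratio of 14.2 (8.74 to 24.6), and Y665H had 9 UMIs (0.802 CPM). Trdc-positive cells held 1, 5 and 20 Drc1 UMIs in WT, Y665H and Y665F, with a Y665F ratio of 42.0 (6.72 to 1742). Pdlim4 in Ccl5-negative CD8 T cells read 7.87, 4.98 and 22.9 CPM in WT, Y665H and Y665F, so that Y665H lay below WT (0.633, 0.411 to 0.962) and Y665F above it (2.90, 2.07 to 4.09). Summed CD4 T-cell markers in the spleen CD8 gate stood at 71.6, 78.6 and 43.1 CPM. The part of CD4 T-cell RNA in these Pdlim4 values was not tested.

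In spleen CD4 T cells Pdlim4 read 60.5, 39.6 and 73.0 CPM in WT, Y665H and Y665F. The Y665H ratio was 0.655 (0.577 to 0.743) and the Y665F ratio 1.21 (1.06 to 1.37), on opposite sides of 1. Osbpl3 read 9.38, 11 and 22.8 CPM there, with a Y665F ratio of 2.44 (1.85 to 3.22). Cd163l1 stayed at 8, 2 and 5 UMIs in spleen CD4 T cells. Summed neutrophil markers in the spleen CD4 gate stood at 25.0, 1751 and 3045 CPM in WT, Y665H and Y665F, and red cell markers at 9.06, 179 and 1.75 CPM, and their part in these ratios was not tested.

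**Figure D4:**
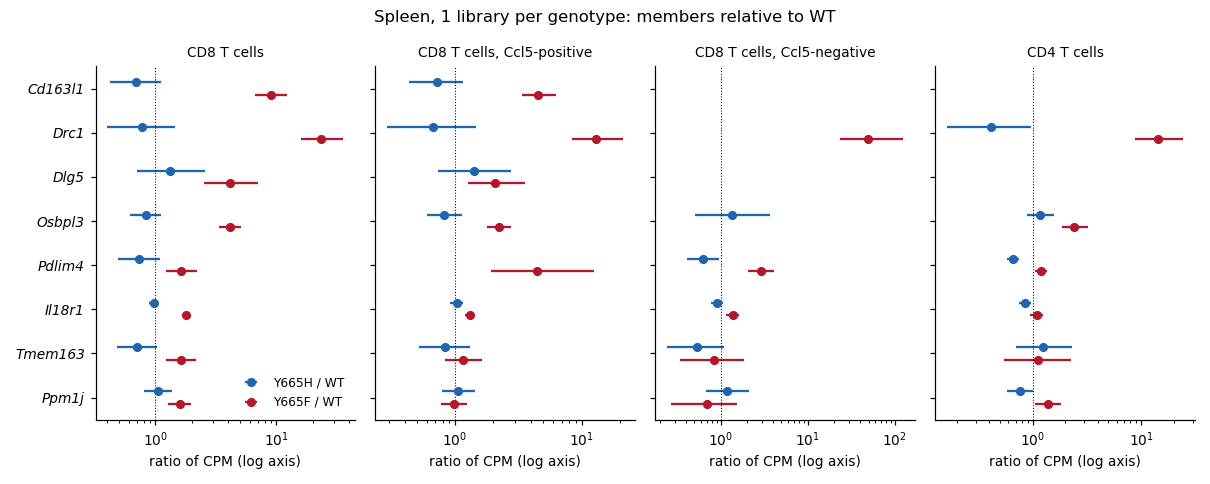
Ratio of CPM over WT (log axis) in spleen Y665H and Y665F cells, 1 library each, for CD8 T cells, their Ccl5-positive and Ccl5-negative subsets, and CD4 T cells, with exact 95% Poisson intervals; pairs with fewer than 15 UMIs together are not drawn. In CD8 T cells the Y665F points lie between 1.58 and 23.5 and the Y665H points between 0.684 and 1.33.

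Spleen Trdc-positive cells (351 WT, 348 Y665H and 141 Y665F) read 10.1, 43.4 and 38.3 CPM of Cd163l1 from 21, 100 and 38 UMIs. Without the cells that also held Cd8b1 or Cd4, 18, 99 and 10 UMIs remained, in 3, 12 and 2 cells. Single cells among them held up to 14, 18 and 5 UMIs, against up to 8, 5 and 19 in spleen Ccl5-positive CD8 T cells. A few cells with many UMIs thus carried this gene, and neither allele's order can be read from them. Il18r1 read 178, 161 and 192 CPM in Trdc-positive cells, and Osbpl3 77.8, 79.4 and 101 CPM, so both were present in WT. Summed natural killer cell markers stood at 2892, 2481 and 1843 CPM in these cells and gamma-delta markers at 576, 585 and 490 CPM, and their part in the values was not tested.

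Bone marrow was not used in choosing the genes. The CD8 gate held 3 to 7 cells a library there, so all cells of a library were summed, and a shift in cell types and a change within cells cannot be told apart. Il18r1 read 1.49 and 2.72 CPM in WT, 1.24 and 1.35 in Y665H, and 5.54 and 7.53 in Y665F. Y665F lay above WT in both libraries, by 1.38 ± 0.35 on the log2 scale (SE, adjusted p = 0.0081, edgeR over 13923 genes), where 8.1% of genes were called higher and 16.8% called in all. The call was lost without WT replicate 1 or without Y665F replicate 2 (log2 differences of 0.918 to 2.12 and adjusted p up to 0.0599 over 13 alternatives).

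No member was called in Y665H bone marrow, where edgeR called 0 of 13923 genes, DESeq2 also 0, and 723 had an unadjusted p under 0.05 in edgeR. With the replicate block edgeR called 18 genes there. Osbpl3 read 12.4 and 6.92 CPM in WT, 4.99 and 6.64 in Y665H and 11.4 and 16.6 in Y665F, a Y665F difference of 0.40 ± 0.27 (adjusted p = 0.264, edgeR). Tmem163 differed by 1.37 ± 0.65 (adjusted p = 0.119, edgeR) and Pdlim4 by -0.50 ± 0.68 (adjusted p = 0.600) in Y665F. Without WT replicate 1 Tmem163 was at 2.72, and with the replicate block it was called (1.38, adjusted p = 0.0477, edgeR). Cd163l1, with 0 to 7 UMIs a library, Drc1, Dlg5 and Ppm1j were under the filter.

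Other genes of the pathway were taken as lists. Of 20 STAT5 targets and feedback genes, 18 were tested in LN CD8 T cells, and 3 were called higher, where 0.962% of all genes were, and 0 lower in homo, with a list median of 0.23. Pim1, a survival kinase, read 62.6 and 73.4 CPM in WT and 144 and 153 in homo (1.18 ± 0.17, adjusted p = 2.29e-04, edgeR). Il2rb, the receptor subunit shared by interleukin-2 and interleukin-15, differed by 1.14 ± 0.16 (adjusted p = 1.80e-04), and Bcl2, which keeps T cells alive, by 1.06 ± 0.15 (adjusted p = 2.30e-04). In het edgeR called 0 of the 18, where 0.492% of all genes were called, and 6 of the 18 had an unadjusted p under 0.05, as 10.0% of all genes did, with a median of 0.18. The median of all genes was 0.00 in both comparisons.

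Il18r1 works with other genes of the interleukin-18 and interleukin-12 axis, of which 8 of 12 were tested. Of these, 3 were called higher in homo, where 0.962% of all genes were, and 3 in het, where 0.356% were, with medians of 0.33 and 0.21. Il18rap, the partner subunit of the same receptor, read 13.5 and 13.3 CPM in WT, 29.7, 22.1 and 22.7 in the het libraries and 30.1 and 28.4 in those of homo (1.18 ± 0.25, adjusted p = 0.00876, edgeR). Ifng, the interferon-gamma gene that this receptor can induce, read 2.84 and 6.25 CPM in WT, 19.8, 13.9 and 10.5 in the het libraries and 28.7 and 37.9 in those of homo (2.81 ± 0.32, adjusted p = 1.21e-05), and Tbx21, the transcription factor T-bet, differed by 1.94 ± 0.24 (adjusted p = 3.26e-05). Il18rap, Ifng, Tbx21 and Il2rb were also called higher in Ccl5-positive than Ccl5-negative CD8 T cells, by 2.88, 2.84, 2.69 and 1.94 on the log2 scale, where 1.19% of genes were called higher. The share of Ccl5-positive cells moved with genotype in the same libraries, and its part in these differences was not tested.

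The genes whose levels across the 7 LN libraries were most like the mean of the 8, by Pearson r over 7650 genes, were Lrrk1 (r = 0.994), 5830411N06Rik (0.992), Txndc5 (0.986), Cdca7l (0.985) and Uck2 (0.981). The libraries share their genotype grouping, so these values are descriptions. 5830411N06Rik, the neighbour of Cd163l1 on chromosome 7 at 140247284-140300736 with 16138 bases and 0 protein-coding genes between them, read 5.69 and 4.35 CPM in WT, 24.5, 21.2 and 29.7 in the het libraries and 57.5 and 40.9 in those of homo. Of 3985 windows of 31 bases of Cd163l1 transcripts, 0 occurred in another gene's transcripts. The 5830411N06Rik levels followed those of Cd163l1 library by library, with homo replicate 1 the highest in both.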

How the data were processed

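Single-cell RNA-seq of LN, spleen and BM was used, with 16 expression libraries and the LN TCR libraries. The authors deposited UMI counts by gene and barcode from Cell Ranger on mm10 (Cell Ranger 5.0 and Seurat 4.0 per the submitters' processing notes, a later Cell Ranger in the spleen and BM file headers). The labels and methods differ on the kit end, so levels were compared within a tissue only. A barcode needed 200 genes, and no more than 10% of its UMIs could be mitochondrial. Cells were gated by UMIs of marker genes, with no clustering and no doublet caller, and leaving out the barcodes of most UMIs, or cells with B-cell UMIs, were alternatives. Counts were summed per library and gate and fitted across all genes that passed the filter of edgeR 4.0.16 in R 4.3.3. The fits were quasi-likelihood with TMM and Benjamini-Hochberg, with all groups of a tissue in 1 fit. A prior count of 2 entered only the log2 CPM that ranked the genes most like the members. DESeq2 1.42.0 was an alternative, and the fits were tested on simulated data. Intervals were exact (Poisson or binomial, 95%, scipy 1.17.1). A count of 0 was given a floor of 3 counts. The exact paired permutation test of Dlg5 and Pdlim4 was added after their values were seen, and 2 such tests were run. Leaving out both shallow libraries, the Ccl5 mix with its left-out libraries, and the spleen settings on top-UMI barcodes and B-cell UMIs were also added after seeing the data.

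The members and the lists were chosen with earlier results of these data known. Named genes were the members, up to 4 called genes of largest absolute fold change of each list in homo against WT CD8 T cells, and the 5 genes most like the members' mean among those with a mean over 10 CPM. Replicate numbers were checked for pairing: deviations of same-numbered libraries correlated at -0.084 to 0.063 in LN CD8 T cells, -0.028 to 0.046 in LN CD4 T cells and 0.052 to 0.314 in BM. The numbers were not used as pairs in the main fits. In BM these correlations were all positive, so pairing there is not settled, and results with a replicate block are given below.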

Additional observations from a re-analysis of the deposited data

How the results depend on the processing

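Of the alternatives for counts of called genes and for the members' medians, 137 stayed within their limits and 37 moved, and the cause was not tested. DESeq2 called 62 genes in homo and 14 in het CD8 T cells (143 and 47 with edgeR), 2 and 4 in homo and het CD4 T cells (20 and 21), and 26 between Trdc-positive and CD8 T cells (58). With no filter on low counts, 114 genes were called in het CD8 T cells, 35 and 83 in homo and het CD4 T cells, 352 by Ccl5 (148 with it), 289 for Trdc-positive cells, and 47 in Y665H bone marrow (0 with it). Requiring Cd8a and Cd8b1 gave 79 in homo CD8 T cells. Requiring at least 500 genes gave 40 in het CD4 T cells and 17 for Trdc-positive cells, and leaving out top-UMI barcodes gave 6 in het CD4 T cells. Fits of only the 2 genotypes compared gave 8 in homo CD4 T cells and 11 in Y665H bone marrow.

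Leaving out each library in turn gave 39 to 161 genes in homo CD8 T cells, 8 to 61 in het, and 0 to 7 between homo and het. It gave 1 to 44 and 11 to 40 in homo and het CD4 T cells, 113 to 163 by Ccl5, 45 to 67 for Trdc-positive cells, and 1511 to 2730 and 2 to 29 in Y665F and Y665H bone marrow. The members' median ran from 2.28 to 2.72 in homo and from 1.42 to 2.06 in het. Signs turned for Tmem163 in het CD8 T cells (-0.19 without WT replicate 2, up to 1.66 otherwise), Il18r1 and Ppm1j in homo CD4 T cells (-0.77 and -6.30 without homo replicate 2, up to 0.56 and 1.11 otherwise), and without WT replicate 2 for Pdlim4 in Y665F (0.21, down to -1.16 otherwise) and Il18r1 in Y665H bone marrow (0.22, down to -0.99 otherwise), none of which was called.

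With the replicate block, 145 and 55 genes were called in homo and het CD8 T cells, 4 between homo and het, 25 and 39 in homo and het CD4 T cells, and 2500 and 18 in Y665F and Y665H bone marrow. Under the replicate block Il18r1 and Ppm1j in het CD8 T cells were at 0.97 each, below the fold limit of a call, and Tmem163 in Y665F bone marrow was called (adjusted p = 0.0477). Few UMIs of Dlg5, Osbpl3 and Drc1 in WT limit their folds.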

Other observations

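Beyond the members, 20 memory and effector genes were listed, of which 18 were tested in LN CD8 T cells. In homo 9 were called higher than in WT, 1 lower and 8 neither, with a list median of 1.08, where 0.962% of all genes were called higher and 1.5% in all. In het 4 were called higher and 0 lower, where 0.356% of all genes were called higher. Ccl5 differed by 3.52 ± 0.24 (SE, log2 scale, adjusted p = 1.07e-08, edgeR) in homo, and Tbx21 is given with the interleukin-18 axis. Gzmm, a granzyme of cytotoxic cells, differed by 2.64 ± 0.24 (adjusted p = 7.71e-07), and Cxcr3, a chemokine receptor of memory T cells, by 1.64 ± 0.16 (adjusted p = 9.57e-07). The lower gene, named after its value was seen, was Itgae, an integrin chain of tissue-resident cells that naive mouse CD8 T cells also carry (-1.48 ± 0.23, adjusted p = 6.26e-04). Of 10 genes of naive T cells, all tested, 0 were called higher and 1 lower in homo, with a median of -0.19, where 0.533% of all genes were called lower. It was Ccr9, a receptor for homing to the gut, read 79.6 and 74.2 CPM in WT, 39.8, 45.4 and 33.1 in the het libraries and 13.7 and 24.1 in those of homo (-1.76 ± 0.21, adjusted p = 1.88e-05). Between Ccl5-positive and Ccl5-negative CD8 T cells Gzmm and Cxcr3 differed by 4.52 and 1.93 and Ccr9 by -4.07 on the log2 scale, all called, and the part of the share of Ccl5-positive cells in the genotype differences was not tested. Of 16 symbols listed for gamma-delta and interleukin-17 genes, 12 were in the matrices and 3 were tested in CD8 T cells. The 2 called higher in homo, where 0.962% of all genes were, were the neighbours 5830411N06Rik and Cd163l1, the latter a member chosen for this difference. In BM, 8 of 18 STAT5 targets and feedback genes tested were called higher in Y665F and 2 lower, with a median of 0.72, where 8.1% of all genes were called higher and 8.66% lower.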
